A study of Mus musculus with 6 samples.

Results

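Respiratory complexes II to V carry electrons from succinate and ubiquinol to oxygen and use the resulting proton gradient to make ATP. Genes were taken as members where the platform annotation gave their probe set exactly 1 gene symbol and that symbol began with Sdh and a, b, c or d, with Uqcr, with Cox and a digit, or with Atp5. This gave 58 genes of 18194 measured: 8 under complex II, 8 under complex III, 25 under complex IV and 17 under complex V. The prefixes also take in 13 genes for assembly or supercomplex factors and 7 isoforms of complex IV subunits that are known from muscle, testis or lung, and these are described apart from the 38 other subunits. The genes were measured in LSK cells, which are marrow cells without mature lineage markers that carry Sca-1 and Kit and include the blood stem cells. Cells were sorted from marrow of mice 6 months old, given in the labels as strain CD57BL/6, that were either WT or Tet1 KO. Tet1 is an enzyme that oxidises methylated cytosine in DNA. Each group had 3 arrays, and neither the form of the Tet1 allele nor whether each array came from its own mouse is given in the sources used here; the p-values then describe only how far these arrays scatter, which may be technical.

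Complex II, succinate dehydrogenase, passes electrons from succinate to ubiquinone and is also an enzyme of the citric acid cycle. Complex III passes them to cytochrome c, complex IV reduces oxygen, and complex V, ATP synthase, turns the proton flow into rotation and ATP. Blood stem cells in their resting state are known to rely much on glycolysis, and their progeny draw more on respiration as they divide and differentiate. All genes described here lie in the nucleus; many of them are known targets of the transcription factors NRF1, GABPA and YY1.

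The deposited values were log2 intensities with array medians within 0.0694 of each other, and precision is limited by the 3 arrays in a group. Tet1 was lower at all 4 of its probe sets, with differences from -1.68 to -0.93 on the log2 scale. Xist was low on replicate 3 of both groups, at 4.58 and 3.82, and between 11.78 and 12.17 on the other arrays, so that each group held 1 array of this kind. Tet1 KO replicate 2 stood apart: limma's array weights gave it 0.236, against 0.898 to 1.88 for the others, and its brightest bacterial control read 4.87, against at most 4.37 elsewhere. The mean of that control over the 6 arrays, 4.39, is used below as a guide to background. Of the LSK markers, Kit, Cd34, Flt3, Meis1, Hlf and Procr read above it in both groups, with list means of 9.91 to 10.11 on the WT arrays, 10.03 and 10.10 on Tet1 KO replicates 1 and 3, and 9.57 on Tet1 KO replicate 2. Of the markers of mature T and NK cells 3 of 5 read under it, as did 1 of 3 for B cells, 2 of 4 for erythroid cells, 1 of 4 for macrophages and 1 of 4 for stroma, while all 5 granulocyte and all 4 megakaryocyte markers read above it. The mean of the granulocyte list ran from 8.28 to 9.02 over the WT arrays and from 8.33 to 8.93 over the Tet1 KO arrays. The mean of the T and NK cell list was 4.13, 4.18 and 4.21 in WT and 4.26, 4.65 and 4.33 in Tet1 KO, so every Tet1 KO array was higher. All 5 of its genes had higher means, and Cd8a and Cd3g did not overlap between groups (Cd8a 0.53, unadjusted p 0.0351 in limma). The defining gene Cd3e read between 3.72 and 4.14 on all arrays, under the bacterial control level. Of the 4 stroma markers 3 had higher means, with Col1a1 (0.32) and Cdh5 (0.24) not overlapping. Over all genes 43.5% had a lower mean, 10.3% had every Tet1 KO array above every WT array, and 3.25% were higher at an unadjusted p under 0.05 in limma. Among other genes of similar intensity, an average of 25.2% had a lower mean for the T and NK cell list and 33.2% for the stroma list. The part of other cells in the results was not tested. In such sorted bulk RNA, fewer cells of a type and less RNA per cell cannot be told apart.

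The promoters are shown first for members whose start region holds a short sequence bound by NRF1, GABPA or YY1, with at least 1 for each complex. They were chosen after the matches and the values of the genes were known. RefSeq start windows of 250 bases before and 50 after the start, in build GRCm38.p6, were listed for 45 of the 58 genes, as 49 windows. Both strands were searched for GCATGCGC, the core of a longer NRF1 palindrome, for CCGGAAGT, a GABPA sequence, and for AAGATGGC, a YY1 sequence. Below, 150 bases before and 20 after the start are printed 5′ to 3′ on the strand of the gene, with these matches in capitals.
Sdhb, complex II, chr4:140961121-140961290, plus strand: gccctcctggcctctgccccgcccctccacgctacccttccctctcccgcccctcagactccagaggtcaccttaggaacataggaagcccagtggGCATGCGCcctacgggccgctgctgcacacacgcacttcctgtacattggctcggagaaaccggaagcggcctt
Uqcrh, complex III, chr4:116075051-116075220, minus strand: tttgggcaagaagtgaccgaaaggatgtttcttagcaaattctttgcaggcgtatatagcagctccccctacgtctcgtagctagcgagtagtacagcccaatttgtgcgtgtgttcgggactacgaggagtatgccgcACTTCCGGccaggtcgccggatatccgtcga
Uqcr11, complex III, chr10:80406802-80406971, minus strand: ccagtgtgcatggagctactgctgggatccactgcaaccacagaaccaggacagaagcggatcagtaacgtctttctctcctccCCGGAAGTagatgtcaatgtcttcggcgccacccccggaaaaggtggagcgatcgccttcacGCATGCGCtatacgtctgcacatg
Cox8a, complex IV, chr19:7217597-7217766, minus strand: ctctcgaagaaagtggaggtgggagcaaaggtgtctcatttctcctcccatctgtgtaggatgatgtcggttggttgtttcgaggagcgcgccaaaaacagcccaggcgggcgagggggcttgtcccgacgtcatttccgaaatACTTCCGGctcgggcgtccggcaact
Atp5g2, complex V, chr15:102671028-102671197, minus strand: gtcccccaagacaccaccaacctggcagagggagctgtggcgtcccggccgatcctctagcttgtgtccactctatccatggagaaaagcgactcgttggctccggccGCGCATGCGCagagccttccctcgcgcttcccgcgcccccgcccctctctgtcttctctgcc
Atp5k, complex V, chr5:108434380-108434549, minus strand: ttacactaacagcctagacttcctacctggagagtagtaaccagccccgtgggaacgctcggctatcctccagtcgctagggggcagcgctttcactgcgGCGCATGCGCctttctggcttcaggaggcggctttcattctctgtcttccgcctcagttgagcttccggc
Atp5j, complex V, chr16:84834957-84835126, minus strand: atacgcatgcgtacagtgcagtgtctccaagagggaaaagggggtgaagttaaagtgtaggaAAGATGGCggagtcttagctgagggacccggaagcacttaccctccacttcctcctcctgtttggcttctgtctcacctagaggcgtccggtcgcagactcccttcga

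The NRF1 match begins 54 bases before the start in Sdhb and 4 bases before it in Uqcr11, and in Atp5g2 and Atp5k matches on both strands overlap and form the whole palindrome. The GABPA match begins 11 bases before the start in Uqcrh, 6 in Cox8a and 66 in Uqcr11, and the YY1 match 88 in Atp5j. Of the members' 49 windows, 14.3% held GCATGCGC, against 2.71% of all 32851 promoter windows of the same length. The GABPA sequence was in 14.3% against 3.89%, the YY1 sequence in 10.2% against 2.75%, and the sequence TATAAA in 12.2% against 13.6%. At least 1 of the NRF1, GABPA and YY1 sequences was in 17 of the 49, or 34.7%, against 8.83% of all windows. By class these were 13 of 33 windows of subunits, 4 of 12 of assembly factors and 0 of 4 of the tissue-limited isoforms. The median GC content of members' windows was 58.7%, against 52.7% over all windows. A match is a description of letters, and no binding was measured.

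Most genes of complexes II to V had lower means in Tet1 KO than in WT, but no single gene was called. Of the 58 genes, 47 had a lower mean and 11 a higher one, with a median difference of -0.22 on the log2 scale, or 85.9% of the WT level. Over all genes 43.5% had a lower mean, and the median difference was 0.05. Among the 38 subunits other than tissue-limited isoforms, 34 were lower, with a median of -0.24. In limma with Benjamini-Hochberg adjustment over the 18194 genes, 0 members had an adjusted p under 0.05, as did 0% of all genes, and 0.642 was the lowest. At an unadjusted p under 0.05 in limma, 3 members were lower (Sdhaf3, Atp5d and Atp5b) and 0 higher; over all genes 3.96% were lower and 3.25% higher (7.21% in all), so the members' 3 of 58 is near the background.

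**Figure D1:**
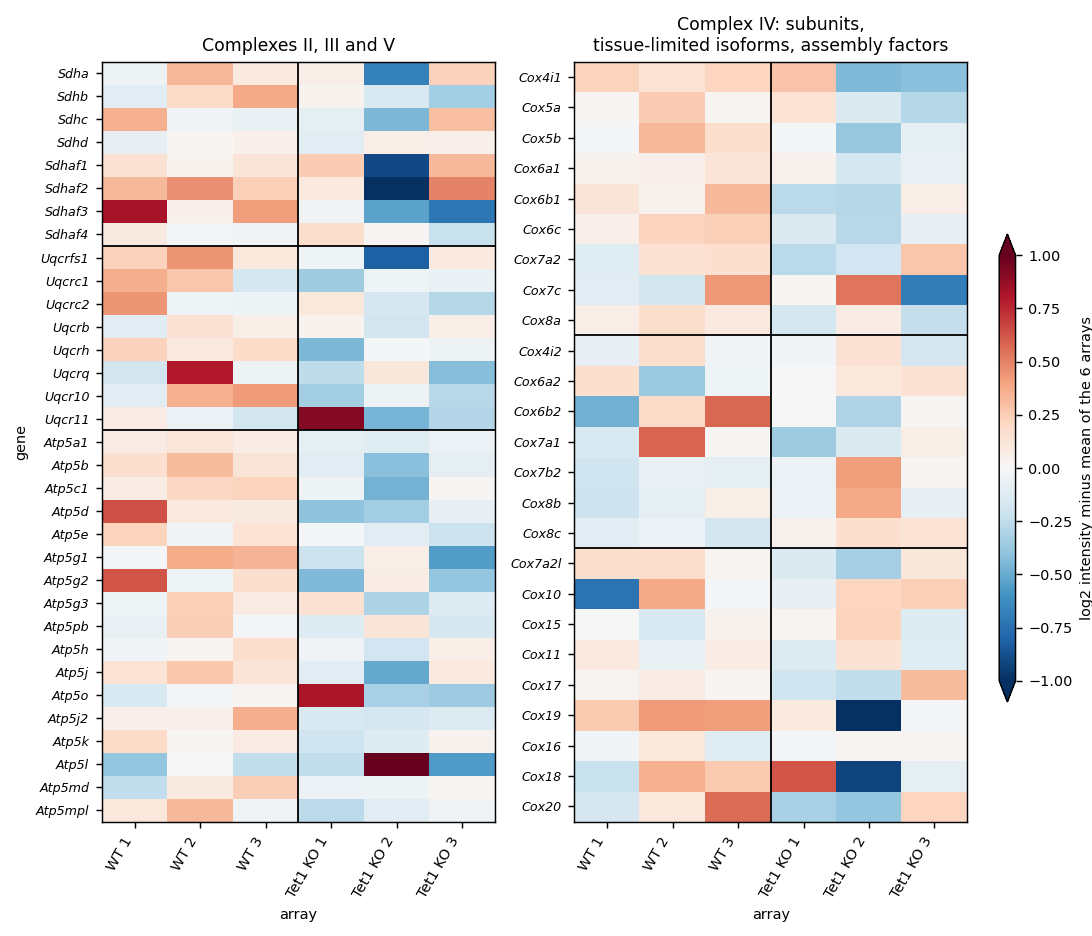
Log2 intensity of each of the 58 genes (rows) on each of the 6 arrays (columns), minus the gene's mean over the 6 arrays, from blue (lower) to red (higher), with the colour scale ending at 1 unit either way. The ATP synthase genes at the lower left are mostly red on the WT arrays and blue on the Tet1 KO arrays, while the darkest single cells, such as Sdhaf2, Cox19 and Atp5l, lie on Tet1 KO replicate 2.

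Intensity moved with these differences and bears on how they are read. Genes were divided by mean intensity into 20 bins of equal size, and in the brightest bin, which holds most of the subunits, the 877 genes that are not members had a median of -0.08, with 63.3% lower. In the bins of all members together, an average of 60.6% of the other genes were lower, against 81.0% of the members. Of the 58 members, 43 lay below the median of the other genes in their own bin, and of the 38 subunits 32 did. Cyclic loess normalization over all probe sets, which removes such trends, left a members' median of -0.11 with 41 lower, and the same over genes left -0.13 with 42 lower.

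**Figure D2:**
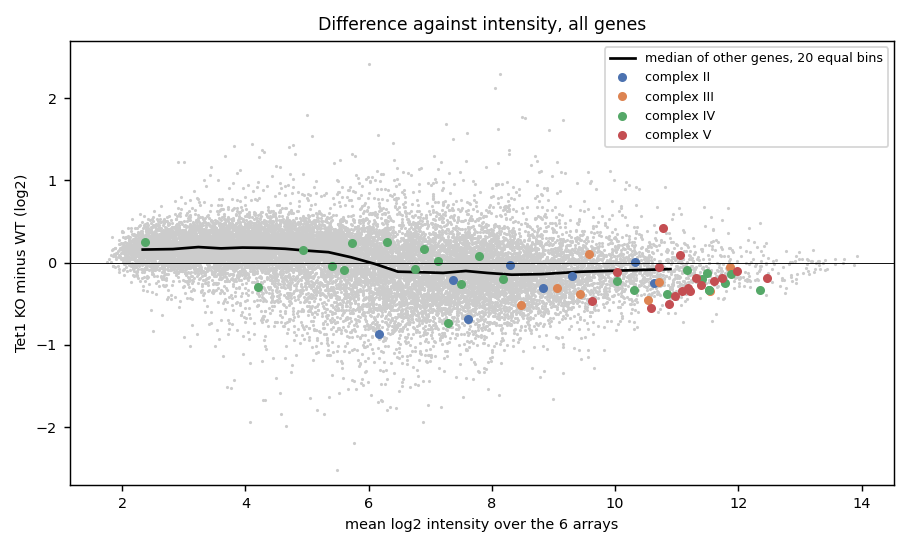
Difference between Tet1 KO and WT (log2) against mean log2 intensity for all 18194 genes (grey) and for the genes of complexes II, III, IV and V (coloured), with the median of the other genes in 20 bins as a black line. The line lies above 0 for dim genes and below 0 for bright genes, at -0.08 in the last bin, and most coloured points at high intensity lie below it.

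The highest Tet1 KO value was under the lowest WT value for 12 of the 58 members, against 6.89% over all genes, and for an average of 11.5% of the other genes in the members' intensity bins. The 12 were Sdhaf3, Uqcrfs1, Uqcrh, Cox5b, Cox6c, Cox19, Atp5a1, Atp5b, Atp5c1, Atp5d, Atp5j and Atp5j2. The reverse held for 2 members, Cox7b2 and Cox8c, against 10.3% over all genes. On each Tet1 KO array, taken against the WT mean, 43, 45 and 43 of the 58 genes were lower on replicates 1, 2 and 3. The members' median there was -0.18, -0.25 and -0.16, while that of all genes was 0.00, 0.12 and 0.02. Without Tet1 KO replicate 2, 44 of the 58 were lower, with a median of -0.17, against 47.0% of all genes and a median of 0.02. In the arrays with high Xist alone, 2 of each group, 44 of 58 were lower with a median of -0.22, and between the 1 Xist-low array of each group 42 were lower with a median of -0.20. For single genes the arrays weigh more: leaving out some 1 array moved the difference by over 1.5 times or turned its sign in 46 of the 58 genes, in 30 of them for Tet1 KO replicate 2. The other 12 were Sdhaf3, Uqcr10, Cox5b, Cox6b1, Cox6c, Cox8a, Cox8c, Atp5a1, Atp5b, Atp5d, Atp5e and Atp5k.

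**Figure D3:**
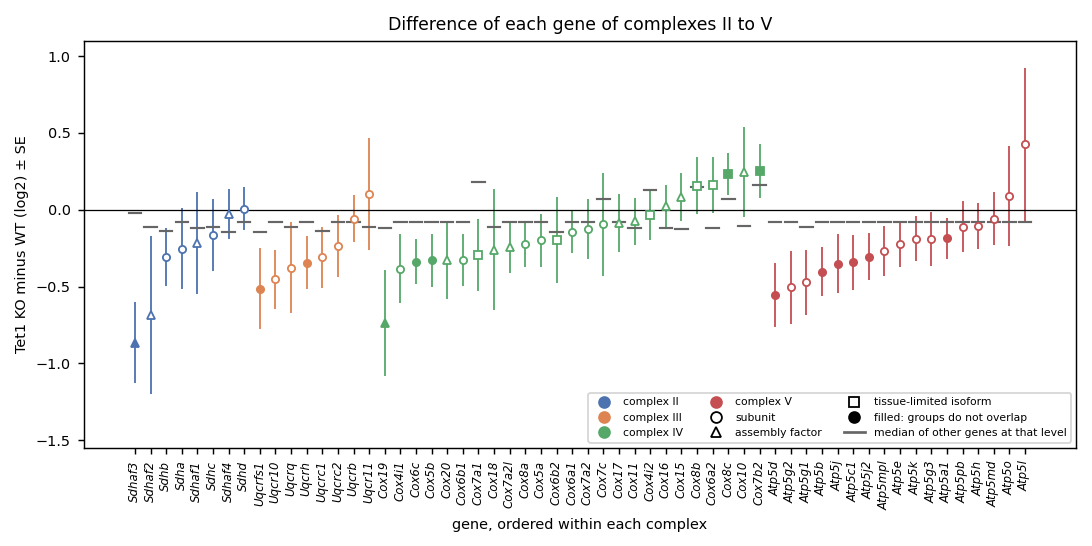
Difference between Tet1 KO and WT (log2, ± moderated standard error, n = 3 each) for each of the 58 genes, ordered within each complex; filled symbols mark genes whose groups do not overlap, and grey bars give the median of the other genes in the same intensity bin. In complexes III and V most points lie below both 0 and the grey bars (6 of 8 and 14 of 17). Uqcr11, Atp5o and Atp5l lie above 0, and Uqcrb and Atp5md lie between the bars and 0.

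Complex V, ATP synthase, had near-equal medians on the 3 Tet1 KO arrays. Of its 17 genes, 15 were lower in Tet1 KO and 2 higher; their median was -0.23, and 14 lay below the median of their intensity bin. Taken against the WT mean, the median of the 17 was -0.22, -0.25 and -0.22 on Tet1 KO replicates 1, 2 and 3, with 15, 15 and 16 genes lower. Relative to the mean of all 6 arrays, the median lay between 0.08 and 0.13 on the WT arrays and between -0.13 and -0.09 on the Tet1 KO arrays, which do not overlap. The brightest bin of other genes was at -0.08, -0.17 and 0.00 on the same Tet1 KO arrays against the WT mean. The part of intensity in the complex V values was not tested. Without Tet1 KO replicate 2, 16 of the 17 were lower with a median of -0.19, and 57.1% of the other genes of the brightest bin were lower.

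The catalytic head and central stalk held 4 of the 6 complex V genes whose groups did not overlap. That is 6 of 17, against 6.89% over all genes and an average of 12.9% of other genes in the same intensity bins. Atp5b, the catalytic beta subunit of the F1 head, read 11.13, 11.29 and 11.10 on the WT arrays and 10.87, 10.56 and 10.89 on the Tet1 KO arrays. All Tet1 KO values lay below all WT values, with a difference of -0.40 (SE 0.16), or 75.6% of the WT level, an unadjusted p of 0.0401 and an adjusted p of 0.642 in limma. Atp5a1, the alpha subunit that shares the head with it, read 12.55, 12.58 and 12.53 in WT and 12.37, 12.34 and 12.40 in Tet1 KO. Its difference was small, at -0.19 (SE 0.13), but the arrays of a group lay close together, with SDs of 0.026 in WT and 0.031 in Tet1 KO (n = 3 each), and its other 2 probe sets gave -0.17 and -0.39. The limma standard error also draws on the spread of other genes.

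Atp5d, the delta subunit of the central stalk, had the largest negative difference of complex V. It read 11.23, 10.67 and 10.67 in WT and 10.18, 10.23 and 10.50 in Tet1 KO, so the groups did not overlap, and WT replicate 1 stood above the other WT arrays. The difference was -0.56 (SE 0.21), with an unadjusted p of 0.0317 and an adjusted p of 0.642 in limma, and its other probe set gave -0.37. Atp5c1, the gamma subunit that turns inside the head, read 11.29, 11.43 and 11.44 in WT and 11.16, 10.74 and 11.23 in Tet1 KO, without overlap, differing by -0.34 (SE 0.18), or -0.19 without Tet1 KO replicate 2. The other probe set of Atp5c1, with a mean of 5.15, gave -0.11. Atp5e, the epsilon subunit, differed by -0.23 (SE 0.15) with overlap between the groups.

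The 3 genes Atp5g1, Atp5g2 and Atp5g3 encode the same mature c subunit, which forms the rotating membrane ring, and all 3 had lower means. Atp5g2, whose promoter shown above holds the NRF1 palindrome, read 11.51, 10.83 and 11.05 in WT and 10.43, 10.95 and 10.49 in Tet1 KO, differing by -0.50 (SE 0.24). Atp5g1 read 9.62, 10.005 and 9.97 in WT and 9.42, 9.69 and 9.07 in Tet1 KO, differing by -0.47 (SE 0.21). In both genes 1 Tet1 KO array, replicate 2, lay within the WT range. Atp5g3 read 11.27, 11.55 and 11.39 in WT and 11.46, 11.004 and 11.18 in Tet1 KO, differing by -0.19 (SE 0.18) with overlap. The unadjusted limma p-values of Atp5g1 and Atp5g2 were 0.0623 and 0.0710.

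The peripheral stalk holds the head still while the ring turns, and its genes ran from -0.35 to 0.09. Atp5j, subunit F6, read 11.22, 11.35 and 11.21 in WT and 10.97, 10.57 and 11.18 in Tet1 KO, without overlap, differing by -0.35 (SE 0.19), or -0.18 without Tet1 KO replicate 2. Atp5h, subunit d, read 11.94, 11.99 and 12.14 in WT and 11.94, 11.78 and 12.04 in Tet1 KO, with overlap, at -0.11 (SE 0.15). Atp5pb, subunit b, at -0.11 (SE 0.17), overlapped too. Atp5o, the OSCP subunit that joins stalk and head, was 1 of the 2 genes of the complex with a higher mean, at 0.09 (SE 0.32). Its Tet1 KO arrays read 11.87, 10.73 and 10.69 against 10.90, 11.04 and 11.08 in WT, so that replicate 1 alone was high. Without Tet1 KO replicate 1 the value was -0.30, and its other probe set gave -0.19.

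The small membrane subunits were lower in 4 of 5 cases. Atp5j2, subunit f, read 11.24, 11.24 and 11.55 in WT and 11.03, 11.02 and 11.05 in Tet1 KO, without overlap, differing by -0.31 (SE 0.15). Atp5mpl, at -0.27 (SE 0.16), Atp5k, subunit e, at -0.19 (SE 0.15), and Atp5md, at -0.06 (SE 0.17), overlapped. Atp5l, subunit g, was higher at 0.42 (SE 0.50), with Tet1 KO replicate 2 at 12.21, while the other Tet1 KO arrays read 10.53 and 10.21 and the WT arrays 10.38, 10.77 and 10.53. Without Tet1 KO replicate 2 it was at -0.19.

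**Figure D4:**
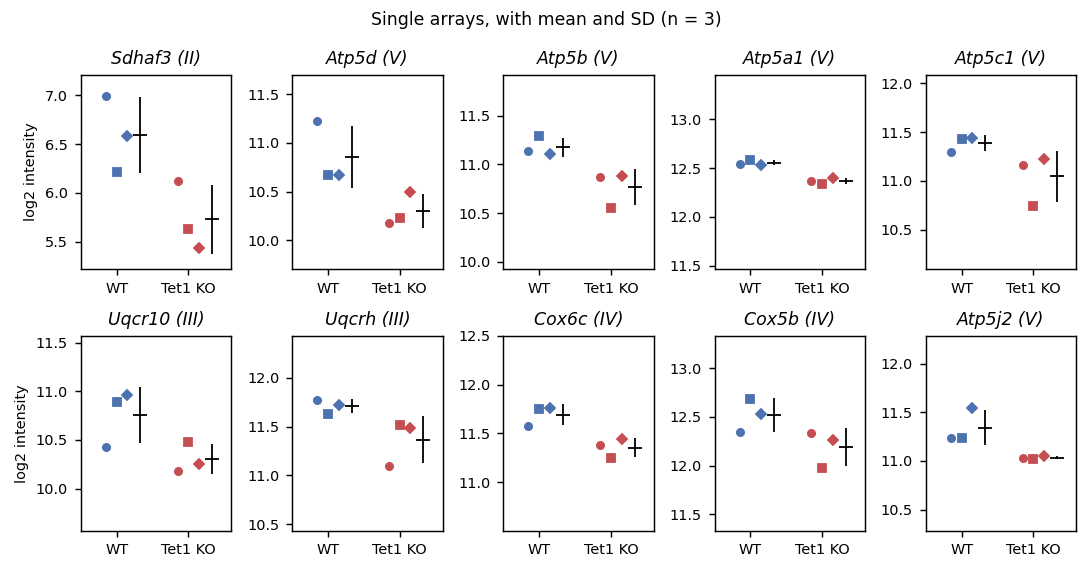
Log2 intensity on each array (circle, square and diamond for replicates 1, 2 and 3; WT blue, Tet1 KO red) with the mean and SD of 3 arrays, for 10 genes named in the text; each panel spans 2 log2 units. The values of the groups do not overlap in any panel except Uqcr10, where Tet1 KO replicate 2 at 10.48 lies above WT replicate 1 at 10.43. The panels are not typical of the members: all but Uqcr10 are among the 12 of 58 genes lying wholly below WT. That compares with 6.89% of all genes, and the groups overlapped in 44 of the 58.

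Complex III, the cytochrome bc1 complex, was lower in 7 of its 8 genes, with a median of -0.33, or 79.8% of the WT level. With the WT mean as reference, Tet1 KO replicates 1, 2 and 3 had medians of -0.37, -0.25 and -0.23. On replicate 2 all 8 genes were lower, against 6 and 7 on replicates 1 and 3. Without Tet1 KO replicate 2, 6 of 8 were lower, with a median of -0.30. Other genes in the same intensity bins had a median of -0.09, and 6 of the 8 lay below that of their own bin.

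Uqcrfs1, the Rieske iron-sulphur protein that hands electrons towards cytochrome c, read 8.69, 8.90 and 8.57 in WT and 8.42, 7.64 and 8.56 in Tet1 KO. The groups did not overlap, but replicate 3 lay just under the lowest WT array and replicate 2 far below, so the difference of -0.51 (SE 0.26) became -0.23 without Tet1 KO replicate 2. Uqcr10, a small subunit, had the smallest unadjusted p of the complex, 0.0534 in limma, at a difference of -0.45 (SE 0.19). It read 10.43, 10.89 and 10.96 in WT and 10.18, 10.48 and 10.25 in Tet1 KO, with overlap at 1 array, and its value stayed between -0.62 and -0.35 with any 1 array left out. Its other 2 probe sets gave -0.71 and -0.56, but both rested on WT replicate 2, at 10.12 and 9.43, and were 0.03 and 0.35 without it. Uqcrh, the hinge protein that helps cytochrome c bind, read 11.77, 11.63 and 11.73 in WT and 11.09, 11.52 and 11.49 in Tet1 KO. Its groups did not overlap, and both of its probe sets gave -0.34 (SE 0.17 for the one used).

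The core protein Uqcrc1 read 9.42, 9.33 and 8.88 in WT and 8.70, 9.01 and 8.99 in Tet1 KO, at -0.31 (SE 0.20), with WT replicate 3 inside the Tet1 KO range. The other core protein, Uqcrc2, was at -0.23 (SE 0.20), also with overlap. Uqcrq, a small subunit, differed by -0.38 (SE 0.30), with WT replicate 2 at 10.23 above all other arrays. Uqcrb, a ubiquinone-binding subunit, read 11.75, 12.01 and 11.93 in WT and 11.90, 11.68 and 11.94 in Tet1 KO, differing by -0.06 (SE 0.16), and was 0.02 without Tet1 KO replicate 2. Uqcr11, whose promoter holds both NRF1 and GABPA sequences, was higher at 0.10 (SE 0.36). Tet1 KO replicate 1 read 10.49, the other Tet1 KO arrays read 9.11 and 9.28 and the WT arrays 9.66, 9.52 and 9.40, and without Tet1 KO replicate 1 the value was -0.33. Cyc1, the haem-bearing subunit of complex III, lies outside the prefixes and is given with the pathway genes.

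**Figure D5:**
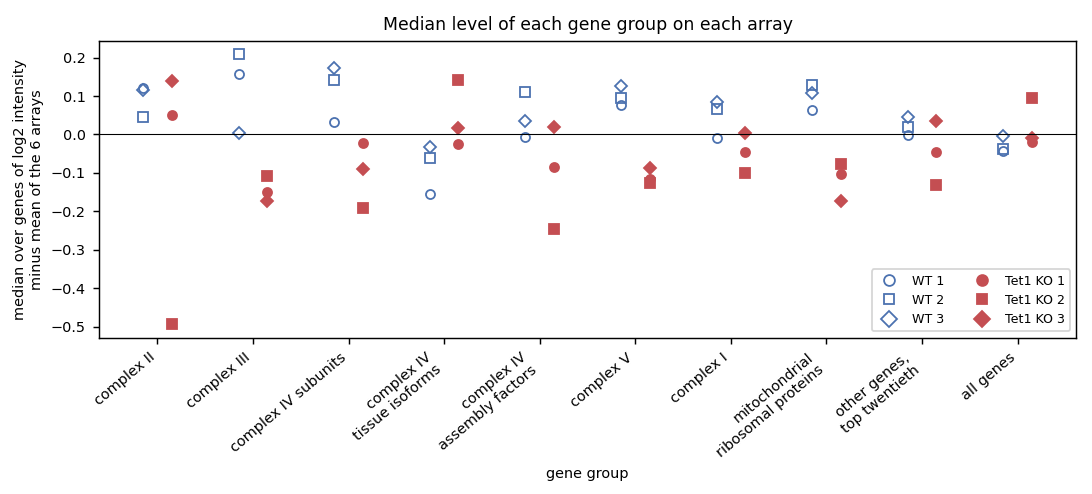
Median over the genes of each group of log2 intensity minus the mean of the 6 arrays, for each WT array (open blue) and each Tet1 KO array (filled red), with replicates 1, 2 and 3 as circle, square and diamond. All WT arrays lie above all Tet1 KO arrays for complex III, complex IV subunits, complex V and mitochondrial ribosomal proteins, all Tet1 KO arrays lie above all WT arrays for the complex IV tissue isoforms, and the arrays overlap for complexes I and II, complex IV assembly factors and the brightest bin of other genes.

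Complex IV, cytochrome c oxidase, split by the kind of gene. All 9 broadly expressed subunits had lower means in Tet1 KO, with a median of -0.22, and all 9 lay below the median of their intensity bin, where an average of 61.0% of other genes were lower. The assembly and supercomplex factors were lower in 6 of 9, with a median of -0.09, beside an average of 63.5% of other genes in their bins. The tissue-limited isoforms were lower in 3 of 7, with a median of 0.16, where other genes of their own bins had a median of 0.13; the bins of Cox6a2 and Cox6b2 are brighter and had medians of -0.12 and -0.15. Together the 25 genes had a median of -0.14 with 18 lower. Tet1 KO replicates 1, 2 and 3 had subunit medians of -0.19, -0.25 and -0.26 relative to WT, and without replicate 2 it was -0.26 with 9 of 9 lower. In the Xist-high arrays alone 8 of 9 were lower, as were 8 of 9 between the Xist-low arrays.

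Among the subunits, Cox6c, a small membrane subunit, read 11.57, 11.75 and 11.76 in WT and 11.38, 11.24 and 11.44 in Tet1 KO, without overlap. The difference was -0.34 (SE 0.15) with an unadjusted p of 0.0542 in limma, while its other probe set, of similar intensity, gave -0.01. Cox5b, a subunit that binds zinc, read 12.34, 12.69 and 12.53 in WT and 12.33, 11.97 and 12.26 in Tet1 KO, without overlap, although replicates 1 of both groups differed by little. Its difference was -0.33 (SE 0.17), and its other 3 bright probe sets gave -0.30, -0.35 and -0.23. Cox6b1, which faces the intermembrane space, read 11.65, 11.56 and 11.85 in WT and 11.25, 11.24 and 11.59 in Tet1 KO, differing by -0.33 (SE 0.17), or -0.25 at its other probe set.

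Cox4i1, the regulatory subunit that senses ATP, read 11.06, 10.98 and 11.05 in WT and 11.12, 10.40 and 10.41 in Tet1 KO. Replicates 2 and 3 were low and replicate 1 was the highest of all arrays, which gave a difference of -0.38 (SE 0.22). Cox8a, whose promoter holds a GABPA match shown above, read 10.10, 10.21 and 10.13 in WT and 9.86, 10.11 and 9.80 in Tet1 KO, at -0.22 (SE 0.15). Cox6a1 read 11.91, 11.93 and 12.01 in WT and 11.92, 11.70 and 11.80 in Tet1 KO, at -0.14 (SE 0.14). Cox7a2 read 11.37, 11.63 and 11.66 in WT and 11.22, 11.30 and 11.77 in Tet1 KO, at -0.12 (SE 0.20). In these 3 broad isoforms, and in Cox5a at -0.20 (SE 0.17), the groups overlapped. Other probe sets gave -0.05 and -0.06 for Cox5a, -0.29 for Cox6a1 and -0.14 for Cox7a2. Cox7c was read by 2 probe sets with means of 5.61 and 4.87, and gave -0.10 (SE 0.34) at the one used. This value turned to 0.23 without Tet1 KO replicate 3 and to 0.10 without WT replicate 3.

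The tissue-limited isoforms are given by their own values, since probe sets of different genes are not compared by level. Cox8c, known from testis, read 5.62, 5.66 and 5.54 in WT and 5.77, 5.89 and 5.86 in Tet1 KO, without overlap, differing by 0.23 (SE 0.14). Cox7b2, also known from testis, read under the bacterial control level on all arrays, between 2.16 and 2.29 in WT and between 2.31 and 2.78 in Tet1 KO. Cox7a1, the isoform of heart and muscle, read 4.05, 4.79 and 4.22 in WT and 3.85, 4.07 and 4.26 in Tet1 KO, with both group means under that level. Cox4i2, an isoform known for induction by low oxygen, read 5.33, 5.58 and 5.38 in WT and 5.39, 5.55 and 5.24 in Tet1 KO, at -0.04 (SE 0.16). Cox6a2, of muscle, read 7.07, 6.53 and 6.86 in WT and 6.89, 7.004 and 7.05 in Tet1 KO, at 0.16 (SE 0.18). Cox8b, also of muscle, read 4.73, 4.84 and 4.98 in WT and 4.87, 5.31 and 4.85 in Tet1 KO, at 0.16 (SE 0.18). Cox6b2, of testis, read 7.70, 8.37 and 8.76 in WT and 8.18, 7.88 and 8.19 in Tet1 KO, at -0.19 (SE 0.28). The groups overlapped in all but Cox8c and Cox7b2.

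The factors that build complex IV are ordered by what they deliver. Cox17 and Cox19, of the copper pathway, differed by -0.09 (SE 0.19) and -0.74 (SE 0.34), and Cox11, which places copper in the catalytic subunit, by -0.07 (SE 0.15). Cox19 read 7.55, 7.72 and 7.71 in WT and 7.39, 6.10 and 7.28 in Tet1 KO, without overlap, but replicate 2 was far below the rest, and the value without it was -0.32. Cox10 and Cox15, which make haem a, differed by 0.25 (SE 0.29) and 0.08 (SE 0.16), with probe sets of both signs in each gene. Of the factors for the mitochondrially encoded subunit 2, Cox20 differed by -0.33 (SE 0.25), Cox18 by -0.26 (SE 0.39), which turned to 0.14 without Tet1 KO replicate 2, and Cox16 by 0.02 (SE 0.14). Cox7a2l, which joins complexes III and IV into supercomplexes, read 11.95, 11.97 and 11.81 in WT and 11.65, 11.46 and 11.90 in Tet1 KO, differing by -0.24 (SE 0.17), or -0.14 without Tet1 KO replicate 2.

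Complex II was lower in 7 of 8 genes, with a median of -0.23, and its lowest array median was on Tet1 KO replicate 2. Not every gene was lowest there: Sdhb, Sdhaf3 and Sdhaf4 read lowest on Tet1 KO replicate 3 and Sdhd on Tet1 KO replicate 1. Relative to the WT mean, Tet1 KO replicates 1, 2 and 3 had medians of -0.11, -0.67 and 0.08. Leaving out replicate 2 gave -0.03 at the probe sets used, with 5 of 8 lower. Between the Xist-low arrays the median was 0.06, with 4 of 8 lower.

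Of its 4 subunits, Sdha, the flavoprotein that oxidises succinate, read 10.58, 10.97 and 10.73 in WT and 10.70, 9.96 and 10.86 in Tet1 KO. At this probe set only replicate 2 was low, so that the difference of -0.25 (SE 0.26) became 0.02 without it. The second bright probe set of Sdha gave -0.43, or -0.23 without Tet1 KO replicate 2. Sdhb, the iron-sulphur subunit with the NRF1 match shown above, read 8.72, 9.01 and 9.21 in WT and 8.86, 8.67 and 8.49 in Tet1 KO, differing by -0.31 (SE 0.19), with overlap at replicate 1. The membrane anchor Sdhc read 9.65, 9.26 and 9.23 in WT and 9.21, 8.85 and 9.60 in Tet1 KO, differing by -0.16 (SE 0.24), or 0.02 without replicate 2. Its other probe set gave -0.51, or -0.21 without that array. The other anchor, Sdhd, differed by 0.01 (SE 0.14) at the probe set used, with all arrays between 10.22 and 10.39, and by -0.30 at its other probe set. Without Tet1 KO replicate 2 that other probe set gave -0.21.

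Sdhaf3, which helps insert the iron-sulphur clusters of Sdhb, had the largest negative difference and the smallest p of all 58 genes. It read 6.99, 6.22 and 6.58 in WT and 6.12, 5.63 and 5.44 in Tet1 KO. The groups did not overlap but came within 0.1 of each other at WT replicate 2 and Tet1 KO replicate 1, with a difference of -0.86 (SE 0.27), or 54.9% of the WT level. Its unadjusted p was 0.0143 and its adjusted p 0.642 in limma. The other factors were Sdhaf2, which attaches the flavin to Sdha, at -0.68 (SE 0.51), Sdhaf1 at -0.21 (SE 0.33) and Sdhaf4 at -0.03 (SE 0.16), which read 8.39, 8.28 and 8.28 in WT and 8.48, 8.31 and 8.08 in Tet1 KO. Sdhaf2 read 7.94, 8.07 and 7.86 in WT and 7.71, 6.00 and 8.11 in Tet1 KO, and Sdhaf1 7.52, 7.40 and 7.50 in WT and 7.62, 6.46 and 7.69. At the probe sets used replicate 2 was the lowest array in both, and without it they were at -0.05 and 0.18. The other probe set of Sdhaf2, of similar intensity, read 7.54, 7.61 and 7.78 in WT and 7.52, 7.48 and 7.13 in Tet1 KO. It differed by -0.27, or -0.32 without Tet1 KO replicate 2.

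Probe sets of a gene often but not always went the same way. The 58 genes had 115 probe sets, of which 102 read above the bacterial control level in at least 1 group, and 83 of these 102 were lower in Tet1 KO. Of 31 genes with more than 1 such probe set, 20 had all of them lower, 1 had all of them higher and 10 had both signs: Sdha, Sdhd, Uqcrq, Cox5b, Cox8a, Cox10, Cox15, Cox16, Cox20 and Atp5o. In Sdha, Cox5b and Cox8a the probe set of the other sign averaged 4.71, 4.79 and 4.22, near that level, and differed by 0.48, 0.19 and 0.47, while their other probe sets above background were all lower. The second probe set of Sdha gave -0.43 and that of Cox8a -0.19. For Uqcrq the remaining probe sets gave -0.01, 0.12 and -0.92, all with means of 5.07 or less. Cox10 gave 0.25, -0.09 and 0.07, and Cox15 gave 0.08, -0.32, 0.32 and 0.06. Cox16 gave 0.02 and -0.30, and Cox20 gave -0.33 and 0.05.

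Other genes of the pathway were read from lists of assembly factors, regulators and remaining subunits outside the prefixes. Of 5 further genes for subunits, cytochrome c and the ATP synthase inhibitor, 2 were lower and 3 higher, with 1 lower and 0 higher at an unadjusted p under 0.05, against 3.96% and 3.25% of all genes. Cyc1 read 9.48, 9.30 and 9.53 in WT and 9.20, 9.09 and 8.89 in Tet1 KO, without overlap, differing by -0.38 (SE 0.16) with an unadjusted p of 0.0468 in limma. Cycs, cytochrome c itself, differed by 0.05 (SE 0.16), and Atpif1, the inhibitor of ATP hydrolysis, by 0.18 (SE 0.19). Of 22 assembly factors, 16 had a lower and 6 a higher mean (median -0.15), beside an average of 61.3% lower in their intensity bins. At an unadjusted p under 0.05 in limma, 3 were lower and 0 higher. That compares with the same 3.96% and 3.25%, and with 6.11% lower in their own intensity bins.

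Among those assembly factors, Uqcc1, for cytochrome b of complex III, read 6.74, 7.19 and 6.71 in WT and 6.47, 5.76 and 6.15 in Tet1 KO, differing by -0.75 (SE 0.24) with an unadjusted p of 0.0160 in limma. Oxa1l, which inserts proteins into the inner membrane, read 8.37, 8.13 and 8.38 in WT and 7.63, 8.12 and 7.35 in Tet1 KO, differing by -0.59 (SE 0.22). In both the groups did not overlap, for Oxa1l narrowly, at 8.12 on Tet1 KO replicate 2 against 8.13 on WT replicate 2. Complete separation below WT held for 4 of 22 assembly factors, against 6.89% of all genes and 10.7% in their intensity bins. Of 13 regulators, 9 had a lower and 4 a higher mean, beside an average of 59.9% lower in their intensity bins. The regulators had a median of -0.28, with 0 at an unadjusted p under 0.05 in limma in either direction. Their median relative to WT was 0.15 on Tet1 KO replicate 1, where 4 of 13 were lower, and -0.24 and -0.27 on replicates 2 and 3. Nrf1, which encodes the factor NRF1, read 7.08, 7.46 and 7.45 in WT and 7.07, 6.23 and 7.02 in Tet1 KO, differing by -0.56 (SE 0.26), or -0.29 without Tet1 KO replicate 2. Tfam, which packages and transcribes mitochondrial DNA, read 7.74, 8.17 and 7.87 in WT and 7.43, 7.69 and 7.59 in Tet1 KO, differing by -0.36 (SE 0.17). Neither overlapped between groups, while Gabpa, at -0.28 (SE 0.34) and 0.11 without Tet1 KO replicate 2, and Yy1, at 0.00 (SE 0.16), did. Nrf1 and Tfam were the 2 of 13 regulators lying wholly below WT. That compares with 6.89% of all genes and an average of 10.4% in the regulators' own intensity bins. Nrf1 did so narrowly, at 7.07 on Tet1 KO replicate 1 against 7.08 on WT replicate 1. All genes named in this paragraph had adjusted p-values of at least 0.642 in limma.

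The lower means were not particular to complexes II to V. Complex I genes were lower in 33 of 44, with a median of -0.13, and array medians relative to WT were -0.12, -0.16 and -0.07. They were taken as symbols starting with Nduf and a, b, c, s or v. That rule takes in Ndufa4, which is also among the further subunits above, and the set was not split into subunits and assembly factors. Genes of mitochondrial ribosomal proteins were lower in 63 of 76, with a median of -0.24 and array medians of -0.19, -0.18 and -0.27. Complete separation below WT held for 3 of 44 complex I genes, 17 of 76 mitochondrial ribosomal protein genes and 12 of 58 genes of complexes II to V. That compares with 6.89% of all genes, and with averages of 11.9%, 12.3% and 11.5% in their intensity bins. Lower means held for an average of 63.6%, 66.9% and 60.6% of genes in those bins. The groups of genes were set side by side only, and no test of a difference between them was made.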

How the data were processed

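RNA from sorted LSK cells, 125 ng per sample, was hybridised to Affymetrix arrays, per the labels' protocols. These name whole-transcript labelling kits, whereas the probe set identifiers match a 3′-biased array design; how this bears on the intensities was not tested. The authors deposited log2 intensities for 45101 probe sets; that scale was inferred from values between 1.50 and 14.6. How they were normalized was not stated, and they were used as deposited. Of 34958 probe sets with 1 gene symbol, the one with the highest mean over 6 arrays stood for its gene. Tet1 KO was compared with WT in limma 3.58.1 (R 4.3.3) by lmFit and eBayes, two-sided, with Benjamini-Hochberg adjustment over 18194 genes at 0.05. Permuting 3 arrays against 3 exactly allows no p below 0.1 for a single gene. Medians over genes are descriptions. The fit was tested on simulated data. Members and lists were chosen with earlier results of these data known. Full statistics were set for all complex II genes and, in each other complex, for the 4 genes with the smallest unadjusted p and the 2 with the highest mean; isoforms were set to be given on every array, genes with probe sets of both signs by probe set, and pathway lists by their 2 smallest p. The Sdh prefix also takes in Sdhaf1 to Sdhaf4. Figures used matplotlib 3.10.9.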

Additional observations from a re-analysis of the deposited data

How the results depend on the processing

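Under each of 17 alternatives 0 members and 0 of all genes passed the adjusted threshold in limma. Of the 47 genes with a lower mean, 30 were lower under all 17 and 3 (Cox7a1, Atp5d and Atp5e) under the 16 that gave them a value. 1 alternative, the Xist state of the array as a covariate, was chosen after seeing the data. That covariate, the replicate number as a block, and the intensity trend with robust eBayes left each gene's difference unchanged. Keeping only genes above the median level dropped genes but changed no difference. Under these alternatives a kept sign was fixed in advance. The 3 members lower at an unadjusted p under 0.05 became 1 with either cyclic loess, with the replicate number as a block and with the Xist covariate, and 7 with an intensity trend and robust eBayes or with array weights; leaving out single arrays gave 2 to 6. Same-numbered arrays of the groups had correlated deviations of 0.0107, -0.00992 and 0.0258, so the number was not taken as a pairing. Cyclic loess over all probe sets and over genes gave medians of -0.11 and -0.13 for all members, -0.21 and -0.22 for complex III, and -0.13 and -0.14 for complex V. In the same order, complex II had medians of -0.12 and -0.13, and complex IV had -0.07 and -0.11. The complex V median was -0.18 with probe sets averaged and -0.19 without probe sets marked as shared, and that of complex IV was -0.22 without assembly factors and tissue-limited isoforms. For complex II the median was -0.37 without probe sets marked as shared, -0.26 with probe sets averaged and -0.07 with array weights. Leaving out single arrays gave -0.26 to -0.17 for all members, -0.39 to -0.03 for complex II, -0.34 to -0.26 for complex III, -0.22 to -0.10 for complex IV and -0.30 to -0.19 for complex V.

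Of the 58 members, 21 changed sign under at least 1 alternative, 14 of them from a lower mean; the cause was not tested. Values are given here for those among the genes set for full statistics. Sdhaf4 was 0.052 with quantile normalization and 0.10 with either cyclic loess, and Uqcrb 0.033 over all probe sets and 0.022 over genes with the latter. Averaging probe sets gave 0.11 for Sdha and -0.15 for Sdhd, and leaving out shared probe sets -0.30 for Sdhd. Array weights gave -0.020 for Sdhd and 0.059 for Sdhaf1. Leaving out single arrays gave -0.43 to 0.022 for Sdha, -0.36 to 0.020 for Sdhc, -0.031 to 0.061 for Sdhd, -0.43 to 0.18 for Sdhaf1, -0.12 to 0.079 for Sdhaf4 and -0.13 to 0.022 for Uqcrb.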
